A study of Kluyveromyces lactis with 8 samples.

Results

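MOH1, SPG4 and TMA17 are 3 genes of the milk yeast Kluyveromyces lactis whose Saccharomyces cerevisiae counterparts are known from stationary phase or from stress. They are 3 of the 5076 genes listed in every library, and all 3 were among the 5022 genes tested. They were taken as identifier KLLA0E05875g (MOH1) and by the symbols SPG4 (KLLA0B12650g) and TMA17 (KLLA0E09263g) in the RefSeq gene table. They were chosen by their measured levels: MOH1 stood higher, and SPG4 and TMA17 lower, in strains lacking SIR2 or SUM1 than in the wild type. Their values in those contrasts are therefore given as a description with no test. The tests below concern the strain lacking SIR4 against the wild type and the difference between the SUM1 and SIR2 deletions, which the choice did not use. These contrasts still share WT, sir2∆ and sum1∆ libraries with those that chose the genes.

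RNA-seq was done on 8 libraries in 4 groups of 2: WT (SIR2), sir2∆, sir4∆ and sum1∆. Every strain, the controls included, was of mating type a and lacked the silent cassettes HML and HMR, and each genotype is represented by 1 strain. Cells were grown in rich glucose medium (YPD) at 30 °C from an OD of 0.3 to an OD of 1, which the labels call early log phase. Libraries of a group are described as technical replicates, so p-values measure only the spread between libraries, which may be technical. RNA came from whole cultures, so fewer expressing cells and less RNA per cell cannot be told apart.

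Stationary phase is the state yeast cultures enter when nutrients run out: growth stops, reserves such as glycogen and trehalose build up, and stress proteins accumulate. In S. cerevisiae, Moh1 is a small zinc-binding protein of the yippee family that is needed for survival in stationary phase, and Spg4 is needed for survival of stationary cells at high temperature. S. cerevisiae Tma17, also called Adc17, is a stress-induced chaperone that helps assemble the ATPase base of the proteasome. Sir2 is an NAD-dependent deacetylase, Sir4 a silencing protein and Sum1 a DNA-binding repressor, and the comparisons ask which transcripts depend on each of them.

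Libraries held an estimated 10.1 to 26.2 M reads in genes. Both sir4∆ libraries were among the 4 shallow ones and both sum1∆ libraries among the 4 deep ones, so depth moved partly with these groups. The deleted SUM1 was at 0 in each sum1∆ library, against 31.2 and 28.0 in WT (in FPKM, which are fragments per kilobase of a gene, scaled to library depth). SIR2 and SIR4 were not found by symbol. A single gene, KLLA0F14663g, was under 0.1 FPKM in the sir2∆ pair while reaching 10 FPKM elsewhere, and it was picked after its values were seen. For sir4∆ there was none, so that label could not be checked. Of the 6 markers listed for a cells 5 were found, with a summed level of 26.7 to 29.6 FPKM in WT, 29.9 to 30.1 in sir4∆, 266 to 309 in sir2∆ and 321 to 340 in sum1∆. Most of that sum in the latter pair was AGA2, at 5.37 FPKM by mean in WT, 240.1 in sir2∆ and 281 in sum1∆. BAR1 and ASG7 were called higher in both, while STE2 and STE6 were not called and stayed between 7.68 and 10.1 FPKM in all 8 libraries. The 3 alpha-cell markers found, of 4 listed, summed to 36.7 to 53.5 FPKM over all 8 libraries, so markers of alpha cells were not absent.

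MOH1 had low levels in 2 groups and high levels in the other two. In WT it measured 15.9 and 19.0 FPKM, and in sir4∆ 14.4 and 16.1 FPKM. In sir2∆ it measured 309 and 294 FPKM, and in sum1∆ 344 and 379.6 FPKM. That every sir2∆ and sum1∆ library lay above every WT library follows from how MOH1 was chosen. The sir4∆ libraries lay below them too, and the share of all genes so separated was not counted. The group means were 17.4 ± 2.22 FPKM in WT, 301 ± 10.1 in sir2∆ and 362 ± 25.1 in sum1∆ (mean ± SD, n = 2), which is 17.3-fold and 20.7-fold the WT mean. On the log2(FPKM + 1) scale, which understates changes of low genes, the differences from WT were 4.04 in sir2∆ and 4.30 in sum1∆. By rank, MOH1 passed 11.6% to 15.0% of genes in WT libraries, and 84.8% to 87.8% in sir2∆ and sum1∆ libraries.

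The levels of MOH1 in sir4∆ and WT could not be separated. The log2 fold change of sir4∆ against WT was -0.18 (SE 0.10, 95% interval -0.40 to 0.04, limma adjusted p = 0.173). Counting error is largest here, since MOH1 rested on an estimated 23 to 58 reads in each WT and sir4∆ library, against 577 to 1842 in sir2∆ and sum1∆. Between the 2 high groups MOH1 was 1.20-fold higher in sum1∆ by mean. That difference was 0.26 on the log2 scale (SE 0.10, 95% interval 0.04 to 0.48), and it missed the threshold after adjustment (limma adjusted p = 0.0593, 0.0104 to 0.296 over 16 alternatives). The order of MOH1 levels was therefore sum1∆, sir2∆, WT and sir4∆, with neither the upper nor the lower pair separated by the test.

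**Figure D1:**
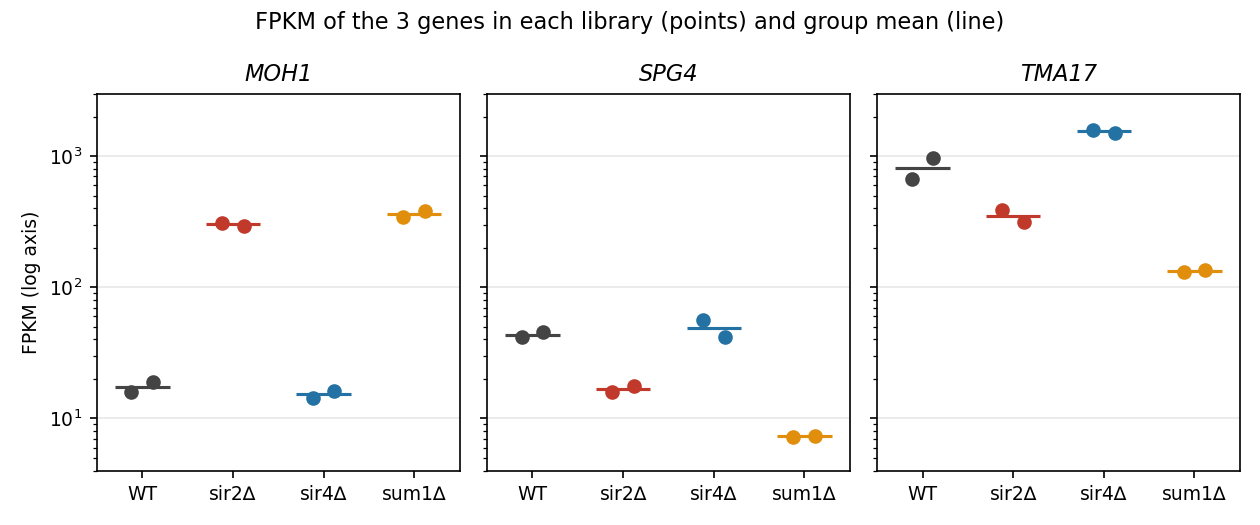
FPKM of MOH1, SPG4 and TMA17 in each of the 8 libraries on a log axis, with points for single libraries and lines for the means of the 4 groups. MOH1 is near 300 FPKM or above in sir2∆ and sum1∆ and below 20 FPKM in WT and sir4∆, while SPG4 and TMA17 are lowest in sum1∆, at 7.31 and 133 FPKM by mean.

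SPG4 ran the other way, with its lowest values in sum1∆. Its FPKM were 41.8 and 45.4 in WT, 56.4 and 41.8 in sir4∆, 16.0 and 17.6 in sir2∆, and 7.28 and 7.34 in sum1∆. The values of WT and sir4∆ overlapped, and those of sir2∆ and sum1∆ lay below WT, which follows from how SPG4 was chosen. The means were 43.6 ± 2.56 FPKM in WT, 16.8 ± 1.12 in sir2∆ and 7.31 ± 0.0419 in sum1∆ (mean ± SD, n = 2), so the WT mean was 2.60 times that of sir2∆ and 5.97 times that of sum1∆. The log2 differences from WT were -1.33 in sir2∆ and -2.42 in sum1∆. In sum1∆ SPG4 stood above 2.7% of genes, against 36.5% to 39.6% in WT.

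The step from sir2∆ to sum1∆ passed the test for SPG4. The log2 fold change of sum1∆ against sir2∆ was -1.09 (SE 0.13, 95% interval -1.39 to -0.80, limma adjusted p = 0.00048), in a comparison that called 1.73% of genes lower. Both sum1∆ values lay below both sir2∆ values, and the share of all genes so separated was not counted. With a pseudocount of 5 the change was -0.82 and short of the fold threshold of 1, and the estimated reads behind these values were 31 to 74 per library. In sir4∆ the mean of 49.1 ± 10.3 FPKM was not separated from WT (log2 fold change 0.15, 95% interval -0.14 to 0.45, limma adjusted p = 0.378). The sir4∆ libraries themselves differed 1.35-fold, and the change was -0.06 without sir4∆ replicate 1 and 0.36 without sir4∆ replicate 2.

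TMA17 was the most abundant of the 3 genes in WT. Its FPKM were 669 and 963 in WT, 1575 and 1508 in sir4∆, 390.0 and 313 in sir2∆, and 131 and 136 in sum1∆. The order of levels was sir4∆, WT, sir2∆ and sum1∆. The WT libraries differed 1.44-fold from each other, more than the libraries of any other group for this gene. The means were 816 ± 208 FPKM in WT, 1542 ± 47.2 in sir4∆, 351 ± 54.6 in sir2∆ and 133 ± 3.18 in sum1∆ (mean ± SD, n = 2). The WT mean was 2.32 times that of sir2∆ and 6.12 times that of sum1∆, and the log2 differences from WT were -1.20 and -2.58. The sir2∆ difference was -0.93 without WT replicate 2 and -1.46 without WT replicate 1.

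In sir4∆ TMA17 was 1.89 times the WT mean. The log2 fold change was 0.94 (SE 0.16, 95% interval 0.57 to 1.31, limma adjusted p = 0.00318), so the difference exceeded the spread between libraries but missed the fold threshold of 1, and TMA17 was not called. This comparison called 0.617% of genes higher. Without WT replicate 2 the change was 1.20 and called, and without WT replicate 1 it was 0.68. With depth class as a term it was 0.73. Against sir2∆, TMA17 fell in sum1∆ by 1.38 on the log2 scale (SE 0.16, 95% interval -1.75 to -1.01, limma adjusted p = 0.000471). This call held under all 16 alternatives, with changes of -1.54 to -1.17. With an estimated 863 to 4409 reads per library, counting error was at most 3.40% of a value.

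**Figure D2:**
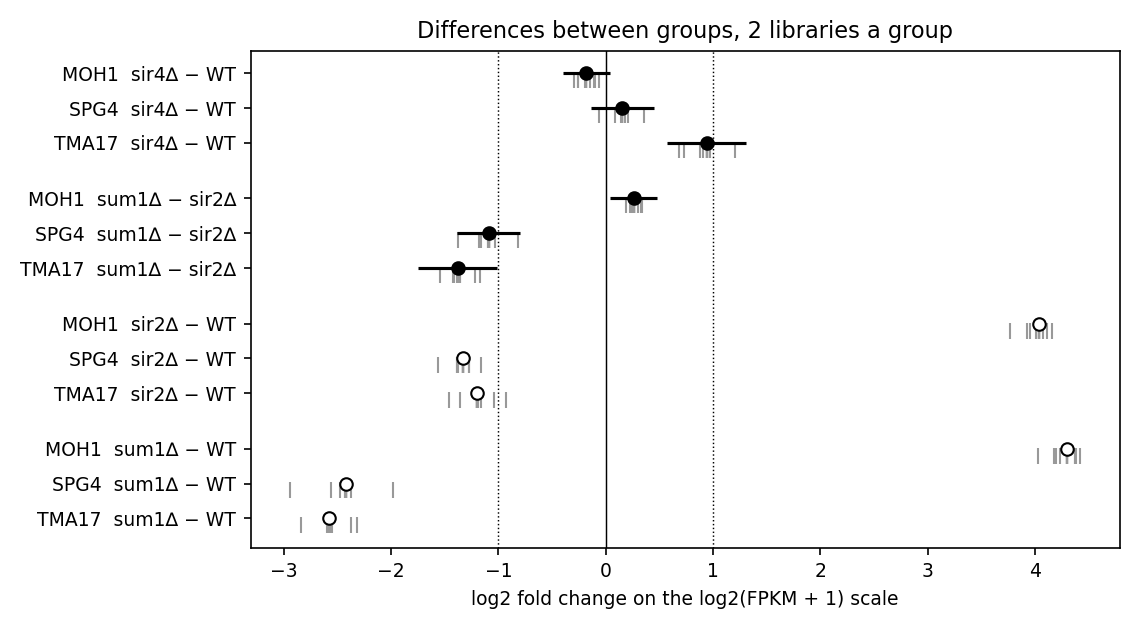
Log2 fold changes on the log2(FPKM + 1) scale, with filled points and 95% intervals for the tested comparisons, open points for the comparisons that chose the genes, and grey ticks for the alternatives. SPG4 and TMA17 lie at -1.09 and -1.38 in sum1∆ against sir2∆, and TMA17 at 0.94 in sir4∆ against WT lies just inside the dotted line at 1.

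Of the 3 genes, 2 were called in sum1∆ against sir2∆, both lower, and 0 in sir4∆ against WT, where limma called 0.617% of genes higher and 0.737% lower. The sum1∆ against sir2∆ comparison called 0.677% of genes higher and 1.73% lower. TMA17 alone differed in sir4∆ at an unadjusted p under 0.05, which 22.0% of genes reached above 0 and 25.8% below 0. In sum1∆ against sir2∆ MOH1 reached that weaker limit above 0, and SPG4 and TMA17 reached it below 0. Of all genes, 29.0% reached it above 0 and 20.5% below 0. In the comparisons used to choose the genes, 4.90% of genes were called higher and 0.717% lower in sir2∆, and 7.73% higher and 2.87% lower in sum1∆. Those comparisons share the WT libraries.

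Because FPKM is per length, the 3 levels can be set side by side within a library, although all 3 genes are short (coding lengths of 375, 384 and 483 bases) and depend strongly on the length correction. SPG4 exceeded MOH1 by 2.39-fold and 2.63-fold in the WT libraries and by 3.93-fold and 2.59-fold in sir4∆. MOH1 exceeded SPG4 by 19.3-fold and 16.8-fold in sir2∆ and by 47.2-fold and 51.7-fold in sum1∆. TMA17 exceeded MOH1 in the WT libraries by 42.1-fold and 50.6-fold, and in sir2∆ by 1.26-fold and 1.06-fold. In sum1∆ MOH1 was the higher of this pair, by 2.63-fold and 2.80-fold. The ratio of TMA17 to SPG4 moved less, from 16.0 to 24.4 over the WT, sir2∆ and sum1∆ libraries, and was 27.9 and 36.1 in sir4∆.

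No gene within 2 positions of a member was called in the direction of that member, and 1 was called in the opposite direction. The 4 comparisons called 0.617% to 7.73% of all genes per direction, so the absence of calls in a member's direction is near that share. Changes of neighbours short of the fold threshold but beyond the spread between libraries went both ways. MOH1 lies on chromosome E of the RefSeq assembly ASM251v1 between YMR1, a phosphoinositide phosphatase in S. cerevisiae, and KLLA0E05897g, which has no symbol. KLLA0E05897g had 101 and 96.0 FPKM in WT, 97.2 and 95.7 in sir4∆, 22.1 and 20.9 in sir2∆ and 36.5 and 37.7 in sum1∆. Its log2 fold change was -2.14 in sir2∆ (SE 0.06, limma adjusted p = 4.81e-08) and -1.38 in sum1∆ (SE 0.06, limma adjusted p = 3.51e-07), opposite in direction to MOH1. It was higher in sum1∆ than in sir2∆ by more than the spread between libraries (log2 fold change 0.76, limma adjusted p = 5.09e-05) but short of the fold threshold. YMR1 and the next gene outward, PXP2, stayed between -0.22 and 0.10 in all 3 deletions. SEC17, on the far side of KLLA0E05897g, stayed between -0.29 and 0.17. Libraries did not keep the strand, so reads of overlapping or antisense transcripts of MOH1 and its neighbours cannot be told apart.

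SPG4 lies on chromosome B between PMU1, a phosphomutase homologue, and YKU80, a subunit of the Ku complex that binds DNA ends. Neither was called in any comparison. PMU1 was at -0.06 in sir2∆, 0.47 in sir4∆ and -0.68 in sum1∆, and YKU80 at -0.02, 0.42 and -0.41. KLLA0B12694g, beyond YKU80, was at -0.65, 0.69 and -0.79. In sum1∆ all 3 fell with SPG4 by more than the spread between libraries (limma adjusted p = 8.48e-05, 0.0118 and 0.000324). In sir2∆ only KLLA0B12694g did so (limma adjusted p = 0.00131). In sir4∆, where SPG4 was not separated from WT, all 3 were higher (limma adjusted p = 0.00239, 0.0197 and 0.00229). At the weaker limit of an unadjusted limma p under 0.05, 34.1% of all genes were below 0 in sum1∆. In sir2∆ 31.7% were below 0 at that limit, and in sir4∆ 22.0% were above 0. KLLA0B12606g, beyond PMU1, had 2.11 to 5.67 FPKM over the 8 libraries and intervals that included 0 in all 3 deletions. TMA17 lies elsewhere on chromosome E between RRT6 and PRP3, a splicing factor gene, which both stayed between -0.15 and 0.25. Beyond them, HSP10, a mitochondrial chaperonin gene, and RRP42, an exosome subunit gene, ran against TMA17, with HSP10 at 0.20 in sir2∆, -0.46 in sir4∆ and 0.63 in sum1∆ and RRP42 at 0.36, -0.16 and 0.68. None of these was called.

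**Figure D3:**
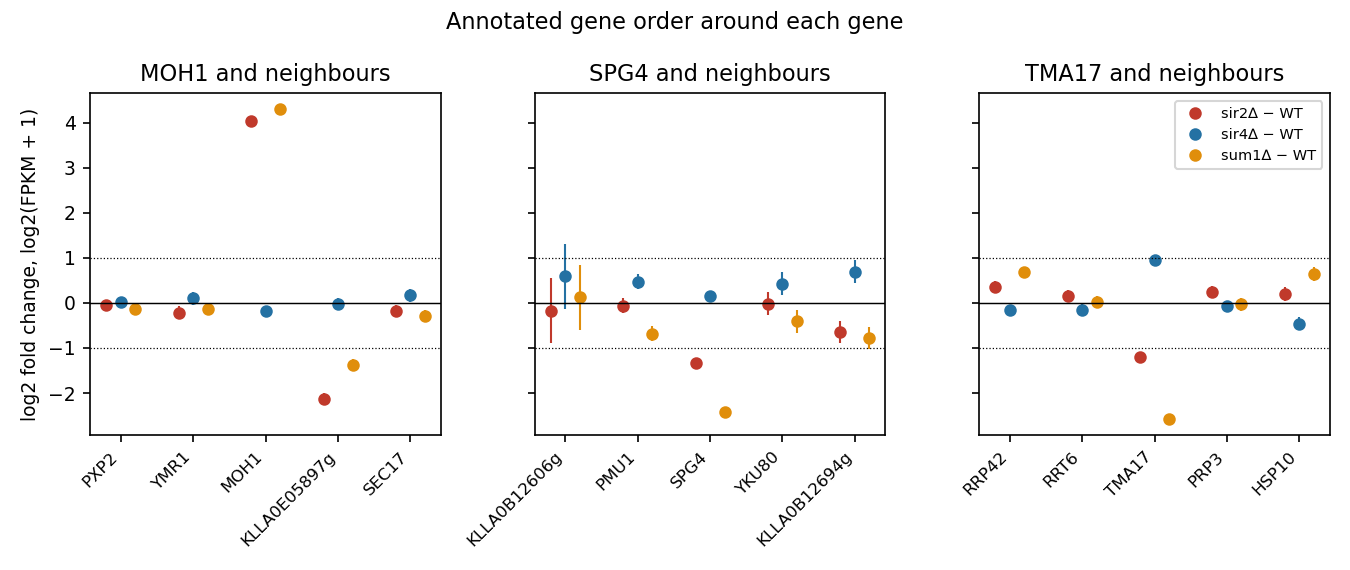
Log2 fold changes against WT of MOH1, SPG4 and TMA17 and of the 2 annotated genes on each side, in gene order, with 95% intervals for the neighbours. The only neighbour past a log2 fold of 1 is KLLA0E05897g beside MOH1, at -2.14 in sir2∆ and -1.38 in sum1∆.

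Genes whose levels followed each member most closely were ranked by Pearson correlation of log2(FPKM + 1) over the 8 libraries, among 1052 genes whose group means spanned at least 1. The libraries fall into groups, so these values describe shared differences between groups and carry no p. For MOH1 the 5 closest were KLLA0F05379g, KLLA0B08261g, TNA1, THI2 and KLLA0C14190g, with r of 0.998 to 0.999. TNA1, the nicotinic acid permease, stood at 229 FPKM in WT, 234 in sir4∆, 951 in sir2∆ and 1096 in sum1∆ by mean. THI2, an activator of thiamine synthesis genes in S. cerevisiae, stood at 6.95, 5.79, 41.7 and 46.4 FPKM in the same order. KLLA0F05379g, the closest by r, stood at 1.88, 1.27, 187 and 230.0 FPKM.

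For SPG4 the 5 closest were KLLA0C18117g, KLLA0E01321g, SCT1, TDA3 and KLLA0D00528g, with r of 0.987 to 0.990. SCT1, a glycerol-3-phosphate acyltransferase gene, stood at 124 FPKM in WT, 130 in sir4∆, 73.7 in sir2∆ and 52.3 in sum1∆ by mean. For TMA17 they were SUC2, KLLA0F23133g, GLC3, RNY1 and KLLA0C16027g, with r of 0.994 to 0.998. SUC2, which encodes invertase, stood at 765 FPKM in WT, 1288 in sir4∆, 431 in sir2∆ and 189 in sum1∆ by mean. GLC3, the glycogen branching enzyme gene, stood at 99.6, 139.8, 53.0 and 28.2 FPKM in the same order. RNY1, a vacuolar ribonuclease gene, stood at 25.5, 42.1, 16.2 and 7.59 FPKM.

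Among other genes linked to stationary phase, 8 were called lower in sum1∆ and 0 in sir2∆. Of all genes, 2.87% were called lower and 7.73% higher in sum1∆, and 0.717% lower and 4.90% higher in sir2∆. The absence of lower calls in sir2∆ is therefore near the share of all genes. Of 43 symbols in a list on stationary phase and quiescence, 19 were in the table and all 19 were tested. The activators MSN2 and MSN4, and the other SPG genes listed (SPG1, SPG3 and SPG5), were not matched by symbol. In sum1∆ against WT 0 rose, and the 8 falls went with a median log2 fold change of -0.91 against -0.01 for all genes. The falls included HSP12, a small membrane heat shock protein gene (-2.34), GPH1, glycogen phosphorylase (-2.10), and GLC3 (-1.78). In sir2∆ 0 fell and 1 rose, FMP16 at 1.00, with a median of -0.12. The FMP16 call was lost without WT replicate 1 or sir2∆ replicate 1 and with a pseudocount of 5, and genes called lower in sir2∆ then numbered 2, 1 and 0. By an unadjusted limma p under 0.05, 8 of the 19 were below 0 and 7 above 0 in sir2∆, and 15 below and 1 above 0 in sum1∆. Of all tested genes, 31.7% were below and 31.1% above 0 at that limit in sir2∆, and 34.1% below and 34.9% above 0 in sum1∆.

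Tested directly, 7 of these 19 genes fell in sum1∆ against sir2∆ and 0 rose (median -0.65 against 0.03 for all genes), in the same direction as SPG4 and TMA17. That comparison called 1.73% of all genes lower and 0.677% higher. Among the 7, HSP12, GPH1 and RTC3 had the largest changes, of -2.78, -1.62 and -1.61 on the log2 scale. Without adjustment (limma p under 0.05), 12 were below 0 and 0 above, against 20.5% and 29.0% of all genes. The sir4∆ against WT comparison called 0.617% of all genes higher and 0.737% lower. There 4 of the 19 rose and 0 fell (median 0.49 against -0.01 for all genes). The 4 were CTT1, cytosolic catalase (2.24), HSP12 (2.15), FMP16 (2.06) and RTC3 (1.22). Without adjustment, 15 were above 0 and 1 below at a p under 0.05, against 22.0% and 25.8% of all genes. TMA17, at 0.94 in sir4∆, lay above that median, and SPG4 at 0.15 and MOH1 at -0.18 lay below it.

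The proteasome, whose base S. cerevisiae Tma17 helps to assemble, is the protease that degrades ubiquitin-tagged proteins. None of its 33 subunit genes was called in any of the 4 comparisons by limma, and their log2 fold changes stayed between -0.27 and 0.34. Those comparisons called 0.617% to 7.73% of all genes per direction, so an absence of calls says little where that share is low. At any p, the subunit genes above and below 0 numbered 31 and 2 in sir4∆ and 23 and 10 in sir2∆. They numbered 15 and 18 in sum1∆, and 7 and 26 in sum1∆ against sir2∆. The subunit genes at an unadjusted p under 0.05 were 4 above and 4 below 0 in sum1∆, 11 above and 2 below in sir2∆, 12 above and 1 below in sir4∆, and 1 above and 6 below in sum1∆ against sir2∆. The shares of all genes above and below 0 at this limit were 34.9% and 34.1% in sum1∆, 31.1% and 31.7% in sir2∆, 22.0% and 25.8% in sir4∆, and 29.0% and 20.5% in sum1∆ against sir2∆. Of 19 tested genes for other assembly factors and regulators none was called either, with medians of -0.02 in sir2∆, -0.05 in sum1∆, 0.07 in sir4∆ and -0.03 in sum1∆ against sir2∆. Those above and below 0 at an unadjusted p under 0.05 numbered 5 and 4 in sir2∆, 3 and 5 in sum1∆, 9 and 2 in sir4∆, and 3 and 6 in sum1∆ against sir2∆. RPN4, the activator of proteasome genes in S. cerevisiae, stood at 84.3 and 82.6 FPKM in WT, 94.1 and 92.6 in sir4∆, 138 and 123 in sir2∆ and 148 and 147 in sum1∆. Its log2 fold changes of 0.63 in sir2∆ (limma adjusted p = 9.67e-05) and 0.81 in sum1∆ (limma adjusted p = 1.36e-05) exceeded the spread between libraries but not the fold threshold. RPN4 was higher in both deletions in which TMA17 was lower, and those comparisons were used to choose TMA17. At an unadjusted limma p under 0.05, 31.1% of all genes were above 0 in sir2∆ and 34.9% in sum1∆. Any link between RPN4 and TMA17 was not tested.

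The GID ubiquitin ligase removes gluconeogenic enzymes in S. cerevisiae, and its mammalian counterpart binds a yippee protein, the family of Moh1. Of 9 tested GID genes 1 fell in sum1∆, GID11 (-1.25), and 0 rose, with a median of -0.57, where 2.87% of all genes were called lower. No GID gene was called in the other comparisons, which called 0.617% to 4.90% of all genes per direction. At an unadjusted limma p under 0.05, the GID genes above and below 0 numbered 0 and 7 in sum1∆ and 0 and 5 in sir2∆. They numbered 5 and 0 in sir4∆, and 0 and 7 in sum1∆ against sir2∆. The shares of all genes are those given for the proteasome. GID11 was called higher in sir4∆ without WT replicate 2. Of 27 tested autophagy genes, ATG8, which encodes the ubiquitin-like protein of the autophagosome membrane, fell in sum1∆ (-1.12) and ATG10, an enzyme of Atg12 conjugation, rose in sir2∆ (1.18). A single call among 27 genes is near the share of all genes called, 2.87% lower in sum1∆ and 4.90% higher in sir2∆. At an unadjusted limma p under 0.05, 16 of the 27 were below 0 and 5 above in sum1∆, and 9 below and 7 above in sir2∆. Of all genes, 34.1% were below and 34.9% above 0 at that limit in sum1∆, and 31.7% and 31.1% in sir2∆. No autophagy gene was called in sir4∆ or in sum1∆ against sir2∆, which called 0.617% to 1.73% of all genes per direction. At an unadjusted limma p under 0.05, 7 autophagy genes were above and 1 below 0 in sir4∆, against 22.0% and 25.8% of all genes. In sum1∆ against sir2∆ 1 was above and 15 below 0, against 29.0% and 20.5% of all genes. The median of the autophagy list was -0.24 in sum1∆, -0.09 in sir2∆, 0.09 in sir4∆ and -0.22 in sum1∆ against sir2∆.

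**Figure D4:**
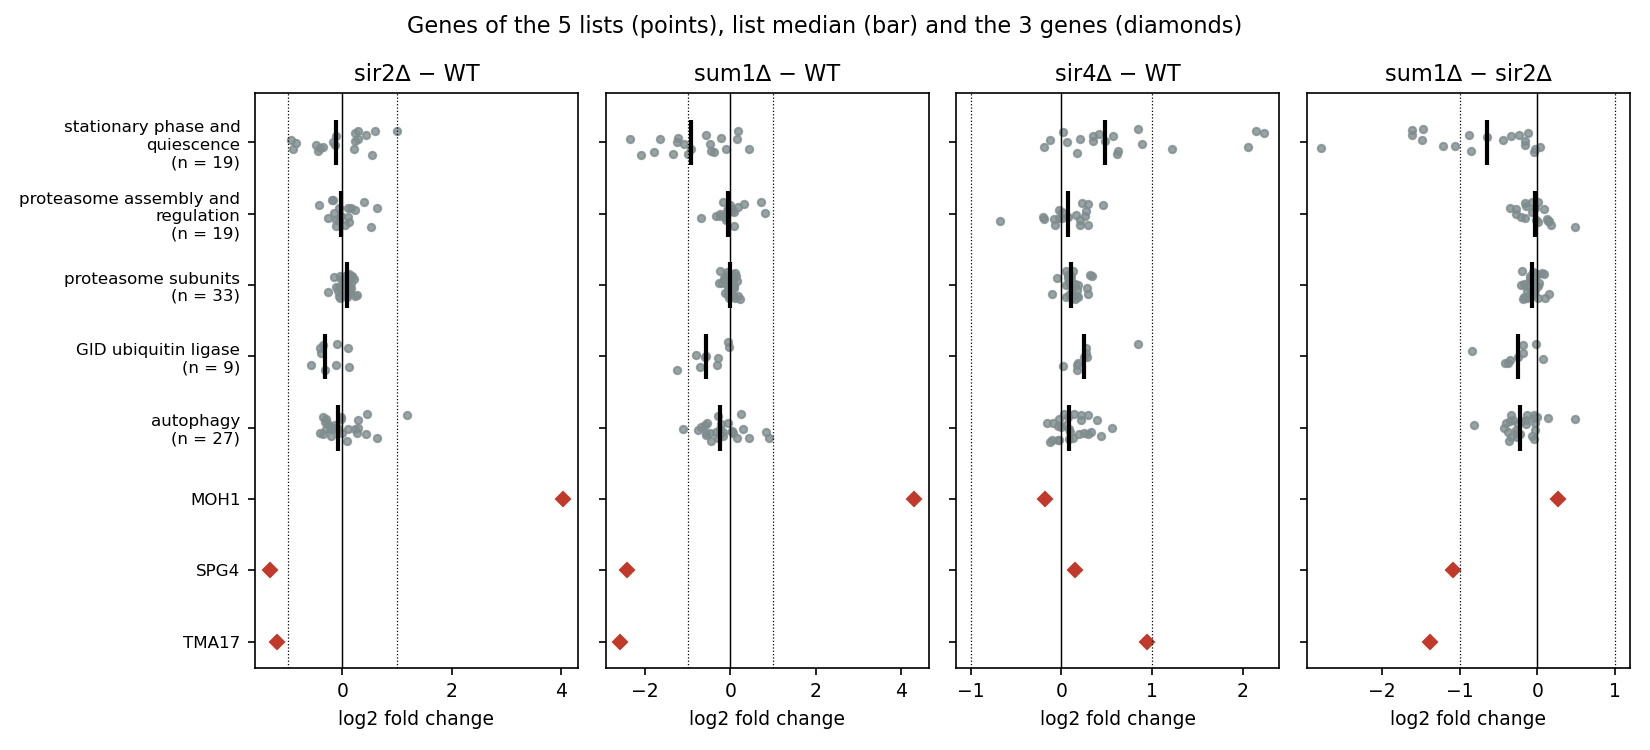
Log2 fold changes of single genes in 5 lists (points), list medians (bars) and MOH1, SPG4 and TMA17 (diamonds) in 4 comparisons, on the log2(FPKM + 1) scale. In sum1∆ against WT, a comparison used to choose the 3 genes, MOH1 lies at 4.30, SPG4 at -2.42 and TMA17 at -2.58. The outer places of the 3 genes there follow from that choice, and the list gene HSP12 lies close to SPG4, at -2.34.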

How the data were processed

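The deposited values are FPKM, computed by the authors for 5076 genes in each of 8 libraries of K. lactis. TopHat2 2.0.10 and Cuffnorm 2.2.1 are named in the submitters' processing notes, and the sources used here do not give the genome build, annotation or filters. Libraries were unstranded with single reads of 50 bases, per the labels' protocols.

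All 5076 identifiers matched locus tags of the RefSeq table (assembly ASM251v1), used only for symbols, coding lengths and gene order. Depth was estimated from the steps of low FPKM values, assuming fragments of 200 ± 80 bases and none shorter than a read. Among genes with at most 100 reads and over 600 bases, 97.8% to 100% of values per library came out whole within 0.1 read. The step was chosen to make these values most nearly whole, so that share is no independent check of the depth. It rested on 10 (sum1∆ replicate 2) to 199 (sir4∆ replicate 1) genes per library. Reads of the 3 members, which are shorter, are approximate.

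The 5022 genes averaging 1 FPKM or more were tested on log2(FPKM + 1) in R 4.3.3 by limma 3.58.1 (trended prior, 1 fit over the 4 groups, 4 residual and 4.02 prior degrees of freedom). A call needed an adjusted p (Benjamini-Hochberg) under 0.05 and a log2 fold change of 1 or more in size. Intervals are 95%, unadjusted. Count models were not used, since the values are not counts. The fit was tested on simulated data. Python 3.11.15 did the remaining steps.

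Members, gene lists and tests were chosen with earlier results of these data known. Besides the members, the genes named were the 2 neighbours on each side, the 5 most correlated genes, and list genes called in a comparison (the 3 largest where more than 5 were called), plus list genes with the best known roles. Sequences were not analysed here.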

Additional observations from a re-analysis of the deposited data

How the results depend on the processing

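The alternatives were pseudocounts of 0.1 and 5, no filter, quantile normalization, median-ratio scaling, only the 2 groups compared, a replicate block, depth class as a term, and leaving out each library, 16 in all. For the members in sir4∆ against WT and sum1∆ against sir2∆, 2 calls changed. TMA17 in sir4∆ was called without WT replicate 2, with a range of 0.68 to 1.20 over the fits leaving out 1 library. SPG4 in sum1∆ against sir2∆ lost its call with a pseudocount of 5 (-0.82), since a larger pseudocount shrinks low values. Genes called in sir4∆ were 19 higher with depth class as a term, and ranged from 17 to 70 higher and 20 to 64 lower leaving out 1 library. Genes called lower in sir2∆ were 90 with quantile normalization, against 36, and the cause was not tested. In the comparisons that chose them, the members kept their direction under all 16 alternatives, which the choice itself made likely. The sizes varied there, most widely for SPG4 in sum1∆, from -2.94 to -1.98.

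Same-numbered libraries did not deviate together (r from -0.251 to 0.025 between groups), so the numbers were not taken as pairs. The replicate block left the members' log2 fold changes as reported (0.94 for TMA17 in sir4∆) and changed no member's call. Crossing the numbers gave 31 higher and 37 lower calls in sir4∆ and 246 and 36 in sir2∆.

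Of 768 values for neighbours under alternatives 767 kept their side of the threshold. KLLA0B12606g, at 2 to 6 FPKM, was called at -1.63 in sir2∆ with quantile normalization. For MOH1 in WT and sir4∆ and SPG4 in sir2∆ and sum1∆, few reads limit the precision, with a counting error of 11.6% to 20.7% of a value.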
